A study of Mus musculus with 6 samples.

Results

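The comparison is that of an inhibitor of the microRNA miR-31 with a negative-control inhibitor in MS-1, a mouse line of immortalised endothelium that was derived from pancreatic islets. It covers 11774 of the 29955 gene names in the deposited table: those that averaged 1 FPKM or more across the 6 libraries and had no 0 in the 4 libraries compared. Another 42 names reached that mean and were left out for a 0. FPKM counts the sequenced fragments of a gene per length of its transcript and of the number of mapped fragments.

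Cells were transfected with locked nucleic acid (LNA) inhibitors, short modified oligonucleotides that pair with a mature microRNA, and then kept for 72 h without TGF-β or with TGF-β2 at 1 ng/ml. The libraries LNA-NC-cont and LNA-NC-TGFb carry the negative-control inhibitor, and LNA-miR31-cont and LNA-miR31-TGFb the miR-31 inhibitor. LNA-miR27-cont and LNA-miR27-TGFb, with an inhibitor of miR-27, complete the 6 libraries and are set beside the comparison. The study asked whether miR-31 takes part in the endothelial-to-mesenchymal transition and the secretory phenotype that TGF-β induces. Every library comes from this single cell line and every inhibitor was given by transfection, so all groups share that handling. There is 1 library per condition, and the labels do not say that libraries came from separate cultures. A difference between 2 libraries therefore has no replicate check, and the p-values rest on how far these 6 libraries scatter, which may be technical. That scatter also holds any dependence of an inhibitor's difference on the TGF-β state.

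A microRNA guides an Argonaute protein to messenger RNAs, chiefly through pairing of its seed with sites in the 3′ untranslated region (UTR), and lowers their stability and translation. Blocking a microRNA can therefore raise the RNA of its direct targets, and genes further downstream can go either way. In endothelial cells miR-31 has been linked to adhesion molecules and to signalling from growth factors. TGF-β can turn endothelial cells toward a mesenchymal, contractile and matrix-producing state. Mir31 itself was listed at 0 FPKM in all 6 libraries, so the table does not show how far the inhibitor lowered mature miR-31.

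The mature miR-31-5p is shown because the inhibitor pairs with it. Its sites in the study's own targets are shown because the microRNA can pair with them. The seed, bases 2 to 8, is in capitals in the microRNA, and its perfect 7-base match is in capitals in the target windows. The RefSeq entry for mature miR-31-5p lies at chr4:88910614-88910635 on the minus strand (GRCm38.p6). The windows come from the longest annotated 3′ UTR of each gene in GENCODE vM21 (GRCm38), and all lie on the plus strand.
mmu-miR-31-5p: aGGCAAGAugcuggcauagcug
Stk40, first site: cctaggagcccTCTTGCCagttcctctc
Stk40, second site: gtggatgcccgTCTTGCCagaaacgctg
Stk40, last site: atggggccaccTCTTGCCagcagtagca
Vav3, only site: catagactttgTCTTGCCtgtctgtagc
In Stk40 the sites start at bases 655, 1029 and 1334 of a 3′ UTR of 2001 bases, at chr4:126139683-126139689, chr4:126140057-126140063 and chr4:126140362-126140368. All 3 are followed by an A, which makes them 8-base sites. The Vav3 site starts at base 1987 of 2089, at chr3:109685596-109685602, and is followed by a T.

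Low values in the table move in steps that differ between libraries, which gives relative depths of 0.818 to 0.901 of that of LNA-NC-cont for the other 5 libraries. Between 11680 and 11791 names reached 1 FPKM in a library, and the median of log2(FPKM + 1) over the 11774 members lay between 3.74 and 3.77. Of 10 endothelial markers, 9 reached a mean of 1 FPKM and their summed level was 1373 to 1531.5 FPKM, whereas Cldn5 stayed at or below 0.04 FPKM. Krt18, the 1 epithelial marker above this mean, was at 38.2 and 53.3 FPKM in LNA-NC-cont and LNA-miR31-cont and at 11.4 and 14.8 with TGF-β, and at 54.0 and 15.8 in the miR-27 libraries; its part in the results was not tested. Markers of other cells that reached this mean were 2 of 11 for leukocytes (Cd68 and Lyz2), 1 of 10 for epithelium, 0 of 11 for pancreas and 3 of 9 for mural cells. In bulk RNA, fewer cells of a type and less RNA per cell cannot be told apart. The library LNA-miR31-TGFb stood apart: its differences from LNA-NC-TGFb had an SD of 0.24 over the members, against 0.15 for LNA-miR27-TGFb. The SD without TGF-β was 0.16 for LNA-miR31-cont and 0.18 for LNA-miR27-cont.

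Stk40 and Vav3, which the study followed as miR-31 targets, were highest with the miR-31 inhibitor in both TGF-β states. The study chose them on samples of this kind, so their direction is not independent evidence. Stk40, a serine/threonine kinase known as a negative regulator of NF-κB, was at 2.43 FPKM in LNA-NC-cont, 2.79 in LNA-miR31-cont and 2.12 in LNA-miR27-cont. With TGF-β it was at 1.21 in LNA-NC-TGFb, 2.53 in LNA-miR31-TGFb and 1.27 in LNA-miR27-TGFb. The libraries with TGF-β thus separated the miR-31 inhibitor from the other two far more than those without it. On the scale log2(FPKM + 1), on which every difference below is given, Stk40 was higher by 0.14 without and 0.68 with TGF-β. Vav3, an exchange factor for small GTPases, was at 11.1, 12.6 and 11.8 FPKM in the same order without TGF-β and at 3.82, 4.64 and 3.76 with it. Its differences were 0.17 and 0.23. The limma test over all genes gave adjusted p-values of 0.244 for Stk40 and 0.236 for Vav3, so neither passed the threshold of 0.05.

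**Figure D1:**
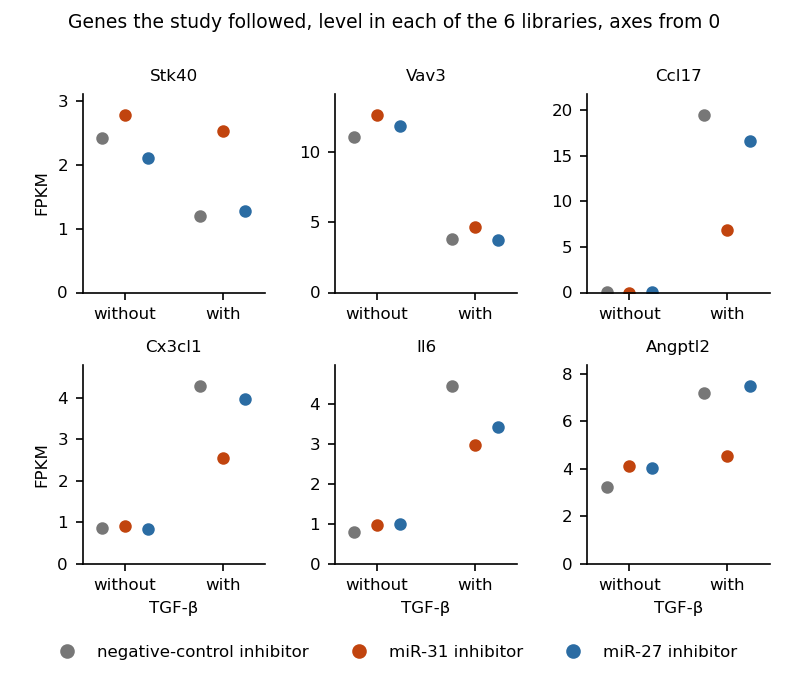
Level in FPKM (vertical axes, from 0) of 6 genes the study followed, in each of the 6 libraries; points are single libraries, grouped on the horizontal axis by TGF-β, grey for the negative control, orange for the miR-31 and blue for the miR-27 inhibitor. The orange points of Stk40 and Vav3 are the highest in both states, and those of Ccl17, Cx3cl1, Il6 and Angptl2 are the lowest of the 3 with TGF-β.

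Of the secreted factors the study followed, Ccl17, Cx3cl1, Il6 and Angptl2 were all lowest with the miR-31 inhibitor when TGF-β was present. Ccl17, a chemokine that attracts T cells, had the widest gap. It was at 19.5 FPKM in LNA-NC-TGFb, 6.83 in LNA-miR31-TGFb and 16.6 in LNA-miR27-TGFb, a difference of -1.39 for miR-31 and -0.22 for miR-27. Ccl17 is not among the 11774 members, because it was listed at 0 in LNA-miR31-cont; without TGF-β it was below 0.1 FPKM in every library. Cx3cl1, a membrane-bound chemokine, was at 4.29 FPKM in LNA-NC-TGFb and 2.54 in LNA-miR31-TGFb, and Il6, a cytokine of inflammation, at 4.46 and 2.98. Angptl2, a secreted angiopoietin-like protein, was at 7.19 and 4.54 FPKM. The differences with TGF-β were -0.58, -0.46 and -0.56, against 0.05, 0.15 and 0.28 without it. These genes thus lay on opposite sides of 0 in the 2 states. Cxcl16 was at 1.13 FPKM in LNA-NC-TGFb and 1.10 in LNA-miR31-TGFb and missed the mean of 1 FPKM over the 6 libraries.

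Reported miR-31 targets as a group showed small differences in either state. Of 30 such genes, 21 were members; 12 were higher in both states and 2 lower in both. Over all members 35% were higher in both states and 30.7% lower in both (4120 and 3610 genes). The median of the 21 was 0.10 without TGF-β, where 19 were higher, and 0.03 with it, where 12 were higher. With the miR-27 inhibitor, measured against the same 2 negative-control libraries, the medians of the 21 genes were 0.09 and 0.01. Spry4 and Spred2, feedback inhibitors of growth factor signalling through Ras, showed 0.27 and 0.27 without TGF-β and 0.24 and 0.08 with it. Arid1a, a chromatin remodelling subunit, and Itga5, the fibronectin receptor subunit, showed 0.32 and 0.28 without TGF-β, and 0.02 and 0.08 with it. Sele, the leukocyte adhesion molecule E-selectin, was at 51.2 and 52.6 FPKM in LNA-NC-cont and LNA-miR31-cont and at 37.4 and 29.9 in LNA-NC-TGFb and LNA-miR31-TGFb. Lats2, Ppp2r2a, Numb, Bap1, Prkce, Spred1, Spry1 and Map3k14 were higher in both states by no more than 0.25 in each. Rdx was lower in both, at -0.04 and -0.07, and Rhoa, Hif1an, Tiam1, Rasa1, Klf13 and Jazf1 had opposite signs. The 9 others, among them Mmp16, Dact3 and Prox1, averaged under 1 FPKM.

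Genes with a match to the miR-31 seed in the 3′ UTR were barely shifted. Of the members, 10471 could be matched to an annotated 3′ UTR, 9533 by the deposited symbol and 938 by a synonym. The 7-base match TCTTGCC was present in 1374 and absent from 9097. The median difference without TGF-β was 0.03 with a match and 0.01 without, and with TGF-β it was 0.00 in both classes. The 428 genes with the 8-base match TCTTGCCA had medians of 0.04 and 0.01. The miR-27 inhibitor, which does not pair with this seed, gave medians of 0.02 without TGF-β for genes with the 7-base miR-31 match and 0.00 for those without. The 1842 genes with the miR-27 match ACTGTGA had a median of 0.03 under the miR-31 inhibitor. By 3′ UTR length, the medians without TGF-β with and without a miR-31 match were 0.01 (126 genes) and -0.01 (3364 genes) up to 709 bases, 0.02 (400 genes) and 0.02 (3090 genes) up to 1840 bases, and 0.04 (848 genes) and 0.04 (2643 genes) above that. Hmox1, Fbxo32 and Hbegf are 3 of the 4 genes with a match that were higher by at least 0.5 in both states, and each was also higher with the miR-27 inhibitor.

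Across all members the differences were small, and they were wider with TGF-β. Without TGF-β, 60 members were at least 0.5 higher with the miR-31 inhibitor (0.51% of members) and 43 at least 0.5 lower (0.365%). With TGF-β the counts were 258 (2.19%) and 126 (1.07%). A difference of 0.5 corresponds to about 1.4-fold for a gene well above 1 FPKM. At least 0.5 higher in both states were 24 members (0.204%), and at least 0.5 lower in both were 11 (0.0934%). Compared with the mean of the negative-control and miR-27 libraries, both counts were 3, and with a pseudocount of 0.1 in place of 1 they were 45 and 21. For the miR-27 inhibitor, with the same controls, 14 members were at least 0.5 higher in both states (0.119%) and 10 lower (0.0849%). Of the 24 members higher with the miR-31 inhibitor, 20 were also higher in both states with the miR-27 inhibitor, 9 by at least 0.5. Of the 11 lower, 10 were also lower, 2 by at least 0.5. In both states, the miR-31 library lay above both other libraries for 12 of the 24, for 0 by at least 0.5. It lay below both for 9 of the 11, for 2 by at least 0.5.

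In the limma fit over both states, 0 genes passed an adjusted p of 0.05 as higher (0% of the 11816 tested) and 4 as lower (0.0339%), while 1269 and 866 had an unadjusted p under 0.05. Of the 4 called, the only member was Scarna3b, a small Cajal body RNA at chr12:81436834-81537588 (mm9). It fell from 606 FPKM in LNA-NC-cont to 169 in LNA-miR31-cont and from 671.5 to 189.8 with TGF-β, a mean difference of -1.83 ± 0.09 (SE of the fit, limma adjusted p 0.0159). It shares its listed place with Dcaf5, and FPKM measures such short RNAs poorly. The others, Mapk9, Jnk2 and Mir763, were listed at 0 in both miR-31 libraries, and Mir763 was at 0 in both miR-27 libraries as well. Without LNA-miR31-cont the fit called 702 genes higher and 435 lower. The miR-31 inhibitor is then represented by LNA-miR31-TGFb alone, which is assumed to vary like the other libraries.

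**Figure D2:**
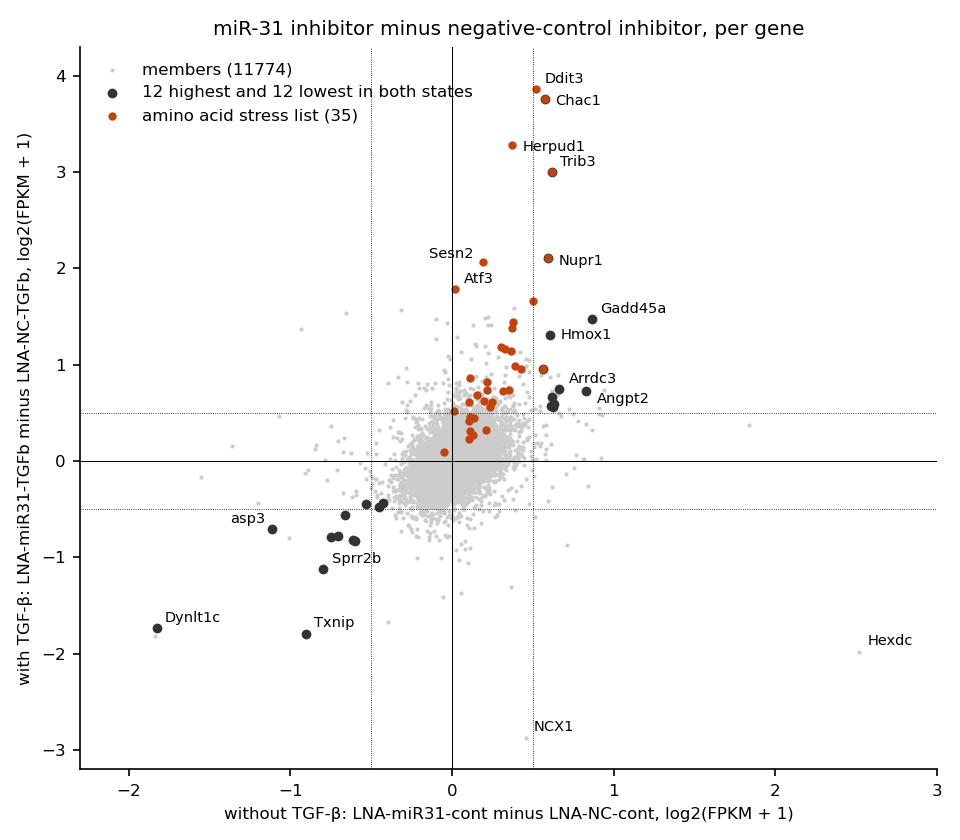
Difference of the miR-31 from the negative-control inhibitor on the log2(FPKM + 1) scale, without TGF-β (horizontal) and with TGF-β (vertical), 1 point per member; dark points are the 12 named genes highest and the 12 lowest in both states, orange points the 35 members of the amino acid stress list, dotted lines lie at 0.5 and -0.5, and 3 histone names fall outside the range drawn. The orange points reach 3.86 with TGF-β but no more than 0.62 without it.

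The genes that were higher with the miR-31 inhibitor in both states, most of them also higher with the miR-27 inhibitor, included growth arrest, vascular and stress genes. Gadd45a, a growth arrest and DNA damage protein (chr6:66985090-67030646, mm9), led them. It was at 22.3 FPKM in LNA-NC-cont and 41.4 in LNA-miR31-cont, and at 75.2 in LNA-NC-TGFb and 211 in LNA-miR31-TGFb, differences of 0.87 and 1.48. In LNA-miR27-cont and LNA-miR27-TGFb it was at 48.8 and 115 FPKM, above the negative control in both states. Its limma mean difference was 1.17 ± 0.25 (SE of the fit, adjusted p 0.227).

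Angiogenic genes stood out in this group. Angpt2, the angiopoietin that antagonises Tie2, shares its listed place (chr8:18595173-18803188, mm9) with Mcph1. Angpt2 was at 48.9 FPKM in LNA-NC-cont, 87.7 in LNA-miR31-cont and 78.9 in LNA-miR27-cont. With TGF-β it was at 4.08, 7.41 and 5.84 FPKM. The miR-31 library was thus the highest in both states, although the level itself was far lower with TGF-β. The differences were 0.83 and 0.73, and the mean 0.78 ± 0.07 (SE of the fit, limma adjusted p 0.144). Kit, the receptor of stem cell factor (chr5:75971012-76052746, mm9), went the same way, at 12.6, 19.9 and 16.4 FPKM without TGF-β and at 5.31, 9.0 and 7.68 with it, and had a limma adjusted p of 0.128. Vegfa, the endothelial growth factor, was at 7.46, 11.9 and 12.5 FPKM without and at 13.9, 21.2 and 20.5 with TGF-β, so both inhibitors of a microRNA lay above the negative control at nearly one level. Of 20 members of the angiopoietin and tip cell list, 5 were at least 0.5 higher without TGF-β, against 0.51% of all members, and 3 with it, against 2.19%. With TGF-β, 9 of the 20 were lower, 1 of them (Nrp1, a VEGF co-receptor) by at least 0.5. The medians were 0.12 and 0.07. Cxcr4, the chemokine receptor of tip cells, was at 4.09 FPKM in LNA-NC-cont and 8.69 in LNA-miR31-cont, and at 2.97 and 4.54 with TGF-β. Tek, the receptor of Angpt2, had differences of 0.03 and -0.22, and Kdr, the main VEGF receptor, of 0.14 and -0.02.

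Arrestin-domain proteins and Txnip, which hold back glucose uptake or sort receptors for degradation, split between the directions. Arrdc3 was at 11.6 FPKM in LNA-NC-cont and 19.0 in LNA-miR31-cont and at 15.2 and 26.2 with TGF-β, with 21.8 and 26.4 in the miR-27 libraries. Txnip (chr3:96359691-96370724, mm9), the thioredoxin-interacting protein, was at 79.2 and 41.9 FPKM without TGF-β and at 60.9 and 16.9 with it. Arrdc4 was at 6.63 and 4.03 FPKM without and at 7.90 and 3.99 with TGF-β, with 4.665 and 6.17 in the miR-27 libraries. Txnip and Arrdc4, which share the glucose-sensing activator MondoA, were therefore both lowest with the miR-31 inhibitor, and Arrdc3 was not. The differences of Txnip were -0.90 and -1.79, beside -0.86 and -1.09 with the miR-27 inhibitor. Its limma mean difference was -1.35 ± 0.21 (SE of the fit, adjusted p 0.211). Over the 7 members of this list, 3 were higher and 4 lower in both states, with medians of -0.01 and -0.01.

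Hmox1, the haem oxygenase of the antioxidant response, was at 49.3 and 75.6 FPKM without TGF-β and at 47.0 and 118 with it, in the order negative control, then miR-31 inhibitor. Prune2, Slc7a1 (a carrier of cationic amino acids), Fam110c, Trib3, Nupr1 and Chac1 complete the 12 leading genes, and in each the smaller of the 2 differences lay between 0.56 and 0.62. Prune2 was at 11.7 and 18.7 FPKM without and at 2.79 and 4.72 with TGF-β, and Fam110c at 8.69 and 14.0 without and at 8.90 and 13.6 with it. In LNA-miR27-cont and LNA-miR27-TGFb, Hmox1 was at 74.4 and 65.9 FPKM, Prune2 at 18.2 and 3.86, and Fam110c at 13.5 and 12.7. In each of these genes the miR-31 and the miR-27 library lay above the negative-control library of the same state.

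**Figure D3:**
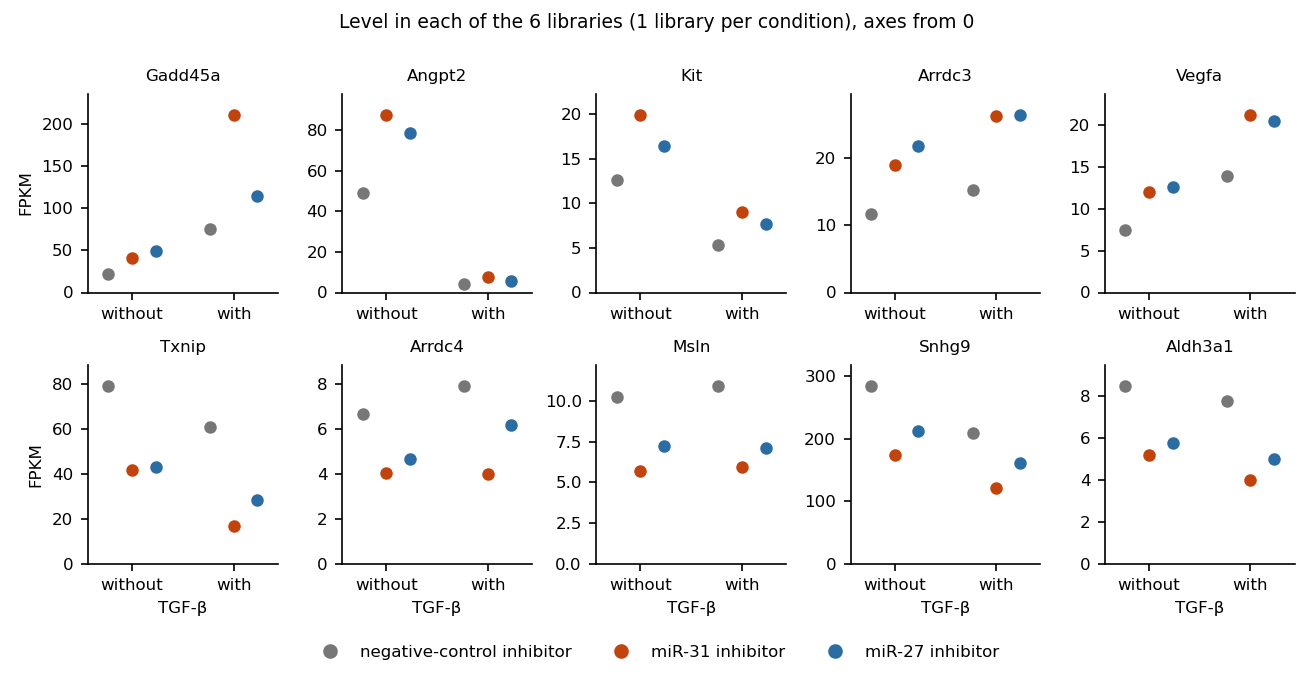
Level in FPKM (vertical axes, from 0) of 5 genes higher and 5 genes lower with the miR-31 inhibitor in both TGF-β states, with 1 point per library coloured by inhibitor (grey negative control, orange miR-31, blue miR-27). In all 10 the grey point is the extreme one in both states, and for Arrdc3 and Vegfa the orange and blue points lie close together.

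The genes lower with the miR-31 inhibitor in both states held few that share a role. Msln, mesothelin, a surface glycoprotein, was at 10.2 and 5.68 FPKM without TGF-β and at 10.9 and 5.92 with it, differences of -0.75 and -0.78 (limma adjusted p 0.0864). Snhg9, a small nucleolar RNA host gene, was at 284 and 174 FPKM without and at 209 and 121 with TGF-β, differences of -0.70 and -0.78 (limma adjusted p 0.0898). Aldh3a1, an aldehyde dehydrogenase, was at 8.47 and 5.19 FPKM without and at 7.75 and 3.97 with TGF-β. For these 3 genes the miR-27 libraries lay between the negative-control and the miR-31 libraries in both states. Sprr2b and Sprr2a1, small proline-rich proteins of the epidermal envelope, had differences of -0.80 and -0.66 without TGF-β and of -1.13 and -0.56 with it. They belong to a family of near-identical copies between which fragments can be split, so their values are uncertain. The same holds for Dynlt1c, a dynein light chain, which was at 3.30 and 0.21 FPKM without TGF-β and at 2.70 and 0.11 with it, and at 5.26 in LNA-miR27-TGFb. Sema3c, a guidance cue, had differences of -0.43 without and -0.44 with TGF-β, beside -0.25 and -0.32 with the miR-27 inhibitor.

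With TGF-β, the difference was led by genes of the amino acid and endoplasmic reticulum stress response. In this response, stress kinases phosphorylate the initiation factor eIF2, the transcription factor ATF4 is then translated, and ATF4 together with CHOP (the product of Ddit3) drives amino acid carriers, tRNA synthetases and feedback regulators. Ddit3 (chr10:126727849-126748842, mm9, a listed place it shares with Mars) was at 41.0 FPKM in LNA-NC-cont, 59.2 in LNA-miR31-cont and 70.2 in LNA-miR27-cont. With TGF-β it was at 19.6, 298 and 39.8 FPKM in the same order. LNA-miR31-TGFb thus stood far above both other libraries with TGF-β, whereas without TGF-β both microRNA inhibitors lay modestly above the negative control. The difference was 3.86 with and 0.52 without TGF-β. The limma adjusted p for the mean over both states was 0.277.

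Other members were also highest in LNA-miR31-TGFb among the libraries with TGF-β. Chac1, which degrades glutathione (chr2:119176978-119180062, mm9), was at 32.2, 48.4 and 49.3 FPKM without TGF-β and at 7.06, 109 and 16.4 with it. Trib3, a pseudokinase that restrains ATF4 and AKT, was at 47.7, 73.7 and 72.7 without and at 11.1, 95.4 and 21.7 with TGF-β. In the negative-control and miR-27 libraries, the level of both genes was lower with TGF-β than without it, and in the miR-31 libraries it was higher. Herpud1, a factor of protein degradation at the endoplasmic reticulum (chr8:96910400-96919258, mm9), was at 18.4, 24.2 and 24.8 FPKM without and at 21.5, 218 and 31.2 with TGF-β, a difference of 3.28. Sesn2, a stress-induced inhibitor of mTORC1, was at 2.23 FPKM in LNA-NC-TGFb, 12.5 in LNA-miR31-TGFb and 3.62 in LNA-miR27-TGFb. Atf3, a transcription factor induced by stress, was at 25.1, 88.8 and 21.96 FPKM in these 3 libraries and between 31.6 and 32.0 in the libraries without TGF-β.

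Of the 40 genes of the amino acid stress list, 35 were members. Like the other gene lists here, it was chosen with earlier results of these data known. Its shares, set beside those of all members, are therefore not independent evidence. Without TGF-β, 34 of the 35 were higher with the miR-31 inhibitor, 5 of them by at least 0.5, against 0.51% of all members. With TGF-β all 35 were higher, 27 by at least 0.5, against 2.19%. The medians were 0.23 without and 0.82 with TGF-β, beside 0.02 and 0.00 over all members. LNA-miR31-TGFb was the highest of the 3 libraries with TGF-β for 35 of 35, against 36.6% of all members; without TGF-β, LNA-miR31-cont was the highest for 15. The miR-27 inhibitor, against the same controls, had medians of 0.26 without and 0.35 with TGF-β. Of the 35 members, 0 passed an adjusted p of 0.05 in limma and 27 had an unadjusted p under 0.05. The spread in that fit also holds any difference between the TGF-β states.

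Within the list the difference varied widely from gene to gene. Atf4 itself was at 221 FPKM in LNA-NC-cont and 287 in LNA-miR31-cont and at 126 and 343 with TGF-β. The carriers Slc7a11 (cystine), Slc3a2, Slc7a1 and Slc7a5 were higher with TGF-β by 1.66, 1.14, 0.96 and 0.87. Slc1a4, a carrier of neutral amino acids outside the list, was higher by 1.59. The biosynthetic enzymes Asns, Psph, Psat1 and Phgdh, which make asparagine and serine, were higher by 0.98, 0.74, 0.45 and 0.27. The tRNA synthetases lay between 0.10 (Wars) and 0.82 (Cars). The transcription factors of the list ranged from 0.41 (Cebpb), 0.52 (Atf5) and 0.61 (Cebpg) to the 3.86 of Ddit3, so they overlapped the enzymes and synthetases. Asns and the 8 synthetases were lower in LNA-NC-TGFb than in LNA-NC-cont, and in LNA-miR31-TGFb Asns was at 78.1 FPKM, still below the 105 of LNA-NC-cont.

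**Figure D4:**
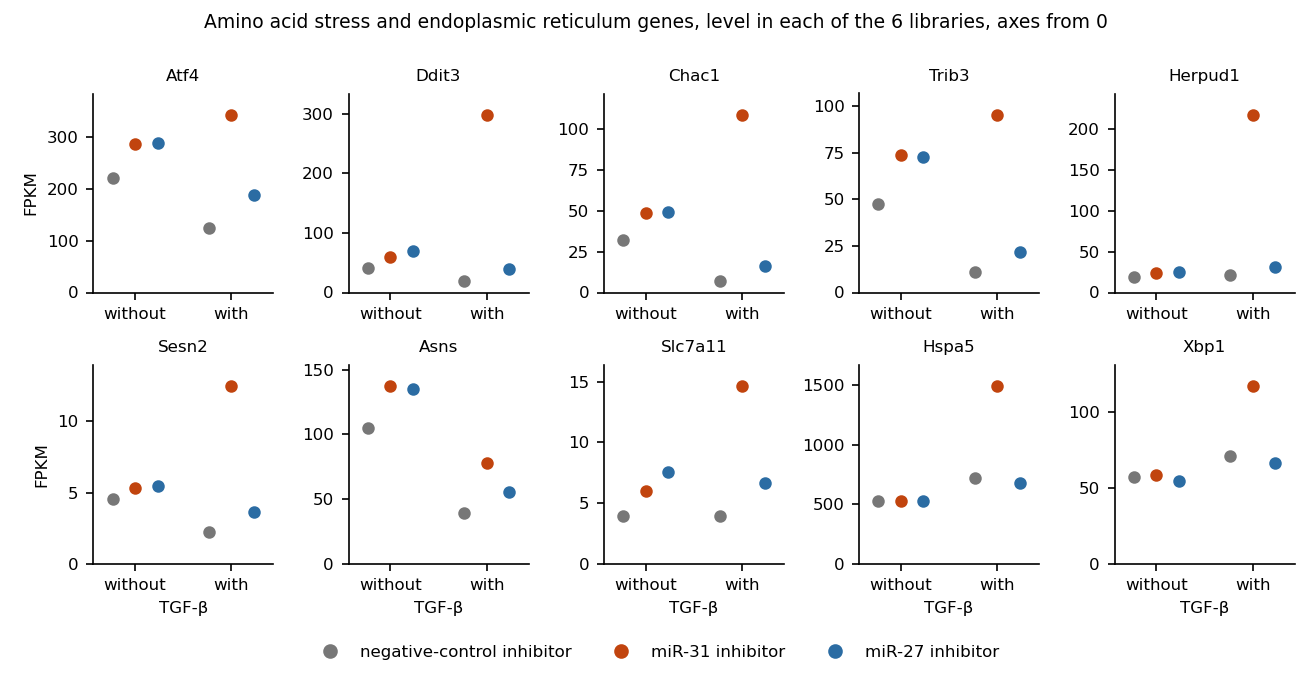
Level in FPKM (vertical axes, from 0) of 8 genes of the amino acid stress list and of Hspa5 and Xbp1, with 1 point per library, grouped by TGF-β and coloured by inhibitor (grey negative control, orange miR-31, blue miR-27). In every panel the orange point is the highest of the 3 with TGF-β.

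Promoters of these genes were searched for the composite site that CHOP or ATF4 forms with C/EBP proteins, TGATGNAA, on both strands of 300 bases around the start (250 before, 50 after) in RefSeq windows (GRCm38.p6). Among the 29 members at least 1 higher with TGF-β that had a window, 8 held it (27.6%), and in the amino acid stress list 11 of 29 (37.9%). It was present in 2.56% of the 7740 members with a window, in 4.51% of 27025 genes in all, and in 3.45% of 58 members at least 0.5 lower with TGF-β. The list was drawn up from genes of the ATF4 response, and it shares genes such as Chac1 and Herpud1 with the members at least 1 higher. These 2 shares are therefore not independent of each other, and neither is evidence for a factor that acted here. The 3 upstream windows below show it in capitals, with Chac1 and Herpud1 among the members with the largest difference and Slc7a11 as the one with 2 matches. They lie at chr2:119350992-119351241 (plus strand), chr8:94386179-94386428 (plus) and chr3:50443614-50443863 (minus).
Chac1: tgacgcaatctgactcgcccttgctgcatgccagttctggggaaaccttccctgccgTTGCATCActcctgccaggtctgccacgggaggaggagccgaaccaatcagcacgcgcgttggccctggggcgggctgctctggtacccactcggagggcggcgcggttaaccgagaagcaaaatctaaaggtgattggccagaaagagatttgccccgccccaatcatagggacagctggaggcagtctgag
Herpud1: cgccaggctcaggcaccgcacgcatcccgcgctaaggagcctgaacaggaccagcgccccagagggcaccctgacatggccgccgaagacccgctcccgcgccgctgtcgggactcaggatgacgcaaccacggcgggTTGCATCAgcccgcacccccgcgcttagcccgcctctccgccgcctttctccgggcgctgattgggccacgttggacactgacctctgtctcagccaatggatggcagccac
Slc7a11: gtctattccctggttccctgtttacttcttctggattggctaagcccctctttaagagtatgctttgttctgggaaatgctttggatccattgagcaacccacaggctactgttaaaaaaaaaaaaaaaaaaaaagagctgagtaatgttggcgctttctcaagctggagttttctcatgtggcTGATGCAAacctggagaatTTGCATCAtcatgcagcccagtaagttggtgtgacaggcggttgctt
The first base of the match lies 193 bases before the start in Chac1, 112 in Herpud1 and 66 in Slc7a11. These letters were not found in the 250 bases before the start of Ddit3, Trib3 and Sesn2. A match describes the sequence and does not show that a factor bound there.

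Most endoplasmic reticulum chaperones were highest in LNA-miR31-TGFb among the libraries with TGF-β (17 of 19 members, against 36.6% of all members). They were about level without TGF-β. Relative to the negative control, 17 were higher with TGF-β, against 5777 of all 11774 members, and 8 by at least 0.5, against 2.19%. Without TGF-β, 10 were higher, against 6507 of all 11774, and 0 by at least 0.5, against 0.51%. The medians were 0.44 with and 0.01 without TGF-β, and -0.06 and -0.01 with the miR-27 inhibitor. Hspa5, the chaperone BiP, was at 527 FPKM in LNA-NC-cont and 522 in LNA-miR31-cont, and at 715 in LNA-NC-TGFb, 1493 in LNA-miR31-TGFb and 679 in LNA-miR27-TGFb. Dnajb9 and Sdf2l1, which work with BiP, were higher with TGF-β by 1.41 and 1.26, and Syvn1 and Creld2, a ubiquitin ligase and a secreted stress protein, by 1.13 and 1.09. Canx and Sec61b, a lectin chaperone and a translocon subunit, were the exceptions at -0.03 and -0.16. The heat shock list, cytosolic and mitochondrial chaperones, had medians of -0.03 without and 0.01 with TGF-β over 14 members. Hspa1b, an Hsp70 gene with a near-identical neighbouring copy, was an exception at 2.96 FPKM in LNA-NC-TGFb and 10.7 in LNA-miR31-TGFb. Among 19 NRF2 antioxidant genes, which protect against oxidants, Slc7a11, Osgin1, Hmox1, Gclm and Srxn1 were at least 0.5 higher with TGF-β. Of all members 2.19% were, and the median of the 19 was 0.04 with and 0.08 without TGF-β. With the miR-27 inhibitor the medians of the 19 were 0.12 with and 0.16 without TGF-β. LNA-miR31-TGFb was the highest of the 3 libraries with TGF-β for 7 of the 19 and the lowest for 7.

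Genes that respond early to growth factors were also higher. The ERK feedback list, phosphatases and adaptors that ERK induces and that hold it back, had 14 members, of which 12 were higher in both states and 1 lower in both, against 35% and 30.7% of all members. Its medians were 0.22 and 0.26, and 0.14 and 0.12 with the miR-27 inhibitor. Dusp6, the cytosolic ERK phosphatase, was at 26.2 and 34.6 FPKM without TGF-β and at 23.3 and 34.0 with it. Dusp4 was at 65.3 and 80.7 without and at 42.5 and 61.7 with TGF-β. In the miR-27 libraries Dusp6 was at 34.7 and 27.6 and Dusp4 at 81.0 and 51.2, so without TGF-β the microRNA inhibitors gave nearly the same level, and with TGF-β the miR-31 library was the higher. Egr1 was at 2.35 and 3.66 FPKM without and at 0.60 and 2.04 with TGF-β. In the AP-1 and early gene list 11 of 13 members were higher with TGF-β, against 5777 of all 11774, and 5 by at least 0.5, against 2.19%. Its median was 0.37 with and 0.02 without TGF-β. Klf4 and Klf6 differed by 0.55 and 0.51 with TGF-β.

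The list of cell cycle inhibitors, Gadd45 genes and Myc had 12 members and medians of 0.22 without and 0.30 with TGF-β. With the miR-27 inhibitor and the same controls, its medians were 0.22 and 0.15. The miR-31 library was the highest of 3 for 2 of the 12 without TGF-β, against 33.5% of all members. With TGF-β it was the highest for 8, against 36.6%. With TGF-β, 9 were higher, against 5777 of all 11774 members, and 5 by at least 0.5, against 2.19%. Gadd45b was at 18.8 and 22.6 FPKM without TGF-β and at 43.6 and 69.7 with it, and Gadd45g at 25.1 and 18.8 without and at 29.1 and 51.9 with it. All 3 Gadd45 genes were thus highest in LNA-miR31-TGFb, and only Gadd45g was lower with the miR-31 inhibitor without TGF-β. Cdkn1a, the CDK inhibitor p21, was at 24.9 and 22.6 FPKM with TGF-β. Myc, a driver of growth, was at 8.88 and 12.8 FPKM without and at 6.53 and 14.6 with TGF-β, and Cdkn2a at 5.14 and 6.34 without and at 3.80 and 6.14 with it.

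**Figure D5:**
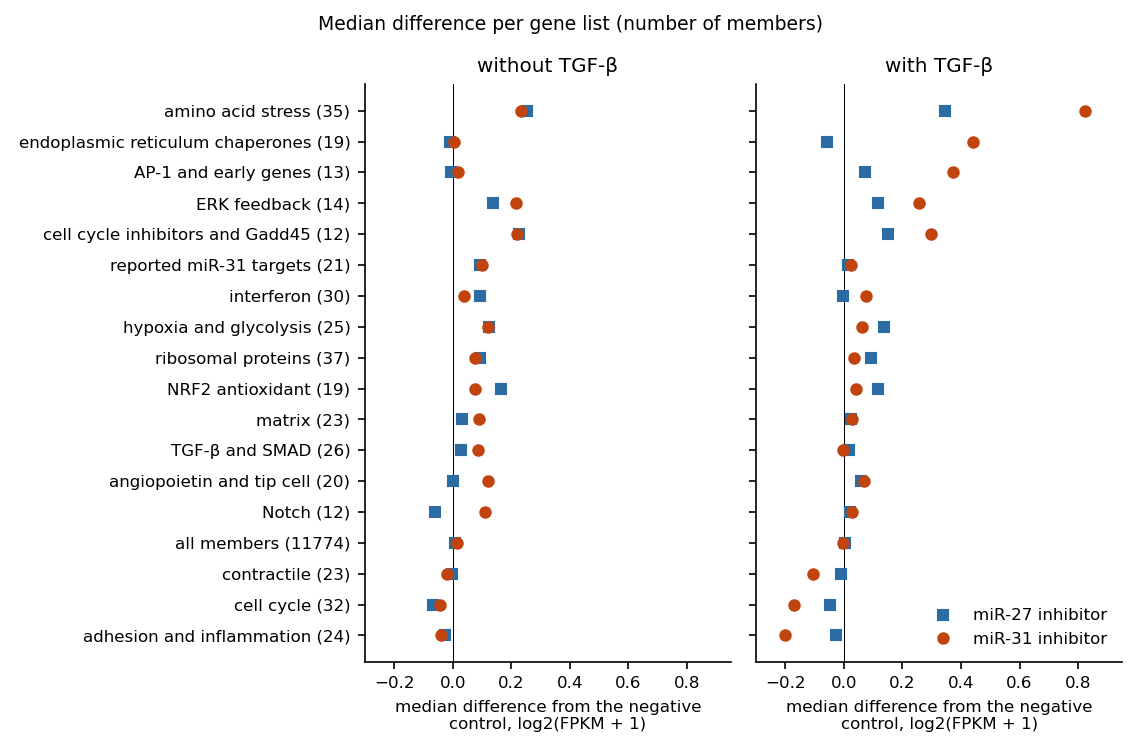
Median difference from the negative-control inhibitor on the log2(FPKM + 1) scale over gene lists and over all members (number of members in brackets), without TGF-β (left) and with TGF-β (right); orange circles are the miR-31 and blue squares the miR-27 inhibitor, which share the control libraries. Without TGF-β the angiopoietin and tip cell list lies at 0.12 for miR-31 and -0.00 for miR-27, and with TGF-β the amino acid stress set reaches 0.82 for miR-31 and 0.35 for miR-27.

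Proliferation genes were slightly lower. Of 32 cell cycle members, 21 were lower in both states and 3 higher in both, against 30.7% and 35% of all members, with medians of -0.04 without and -0.17 with TGF-β. LNA-miR31-TGFb was the lowest of the 3 libraries with TGF-β for 24 of the 32, against 40.5% of all members. Without TGF-β, LNA-miR31-cont was the lowest for 4 of the 32, against 22.4%. With the miR-27 inhibitor and the same controls, the medians were -0.07 without and -0.05 with TGF-β. Ccne1, cyclin E1, was at 14.9 and 13.1 FPKM without and at 15.9 and 10.9 with TGF-β. Rrm2, a subunit of ribonucleotide reductase, was at 175.5 and 155 FPKM in LNA-NC-cont and LNA-miR31-cont and at 161 and 126 in LNA-NC-TGFb and LNA-miR31-TGFb. Cdt1, the replication licensing factor, went the other way, at 16.2 and 20.4 without and at 11.8 and 16.8 with TGF-β. Among all 32, 1 was at least 0.5 lower with TGF-β, against 1.07% of all members.

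The genes of the mesenchymal response to TGF-β showed lower values for some members. Acta2, smooth muscle actin, was near 0 without TGF-β (0.13 and 0.11 FPKM), and with it was at 16.7 in LNA-NC-TGFb, 10.2 in LNA-miR31-TGFb and 11.7 in LNA-miR27-TGFb. S100a4, a calcium-binding protein of fibroblasts, was at 884 and 826 FPKM without and at 571 and 331 with TGF-β. Fn1, fibronectin, was at 202 FPKM in LNA-NC-TGFb and 210 in LNA-miR31-TGFb, and Snai2, a repressor of epithelial genes, at 1.69 and 2.84. The members of this list thus went different ways: over its 11 members the medians were 0.03 and 0.00. Timp3 and Timp1, inhibitors of matrix proteases, were at 91.3 and 47.5 FPKM and at 118 and 79.5 in LNA-NC-TGFb and LNA-miR31-TGFb, with medians of 0.09 and 0.03 over the 23 matrix members. Of 23 contractile members, 15 were lower with TGF-β, against 5997 of all 11774 members, and 1 by at least 0.5, against 1.07%, with a median of -0.11. Among 26 members of the TGF-β and SMAD list, Tgif1, a SMAD corepressor, was higher by 0.45 and 0.44, Smurf1, a ligase for SMADs and receptors, by 0.25 and 0.34, and Smad7, the inhibitory SMAD, by 0.20 and 0.32. Id3, an inhibitor of differentiation, was at 13.6 FPKM in LNA-NC-TGFb and 22.7 in LNA-miR31-TGFb. The medians of this list were 0.09 without and -0.00 with TGF-β.

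Adhesion and inflammation genes had medians of -0.04 without and -0.20 with TGF-β. Of 24 members, 16 were lower without TGF-β, where 5267 of all 11774 members were lower, and 15 with it, where 5997 were. In both states 9 were lower, against 30.7% of all members. With TGF-β, 1 was at least 0.5 lower (Cx3cl1), against 1.07% of all members, and 1 higher (Cxcl2), against 2.19%. Ccl5, a chemokine for T cells and monocytes, was at 33.5 and 26.3 FPKM without and at 21.4 and 16.2 with TGF-β. Ccl7 was at 3.11 and 2.75 FPKM without and at 3.43 and 2.18 with TGF-β, and Cxcl2 at 6.68 and 5.63 without and at 5.46 and 10.3 with it. Vcam1 and Sele, adhesion molecules for leukocytes, had differences of -0.33 and -0.31 with TGF-β and of 0.03 and 0.04 without it. In the interferon list the median was 0.04 without and 0.08 with TGF-β over 30 members; Mx2, an antiviral GTPase, was at 8.64 and 11.1 FPKM without and at 4.71 and 9.63 with TGF-β.

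Several of the largest differences in 1 state were in names that share their listed place with another name. Of the members, 4263 share a place; 1.45% of these were at least 0.5 higher or lower without TGF-β, against 0.546% of the 7511 others, and 3.47% against 3.14% with TGF-β. NCX1, an older name at the place of Slc8a1 (chr17:81772445-82137717, mm9), was at 30.2 FPKM in LNA-NC-TGFb and 3.26 in LNA-miR31-TGFb, while Slc8a1, the sodium-calcium exchanger, was at 7.82 and 7.39. Hexdc was at 2.79, 20.7 and 2.79 FPKM in LNA-NC-cont, LNA-miR31-cont and LNA-miR27-cont, and at 14.2, 2.85 and 2.92 with TGF-β. The high Hexdc values thus fell in LNA-miR31-cont and LNA-NC-TGFb. The pairs nek2 and Nek2, Orc1l and Orc1, myo_10 and Myo10, Sgo1 and Sgol1, and Zfp326 and Znf326 also share a place: Nek2 was at 35.9 and 34.4 FPKM with TGF-β, where nek2 was at 1.67 and 0.28. Likewise asp3 shares the place of Mxra8, and Myt1 that of Pkmyt1. Among the genes named for both states, Angpt2 shares its place with Mcph1 and Snhg9 with Snora78. Gadd45a, Arrdc3, Kit and Txnip share theirs with unnamed models. Syn3, which was at 55.1 and 26.5 FPKM with TGF-β, shares the place of Timp3, and fragments of overlapping genes may be split between them. Of the names alone at their place, Saa3, an acute-phase protein, was at 4.53 FPKM in LNA-NC-TGFb, 0.74 in LNA-miR31-TGFb and 1.46 in LNA-miR27-TGFb. Fbxo32, a muscle ubiquitin ligase, was at 3.07 and 6.65 FPKM without and at 8.11 and 12.3 with TGF-β.

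Some genes of high level elsewhere were listed at 0. Of the 42 names left out for a 0, 27 are short RNAs, histones or unnamed models. Mapk9, the kinase JNK2, and Jnk2, its second name at the same place (chr11:49660253-49699923, mm9), were listed at 0 in both miR-31 libraries, while Mapk9 was at 19.9 and 23.0 FPKM in the negative-control and at 19.9 and 22.9 in the miR-27 libraries. Another 10 names were listed at 0 in LNA-miR31-TGFb only. They include Rbbp7, a histone chaperone at 187 FPKM in LNA-NC-TGFb, and 6 other named genes in 4 places, at which every name was listed at 0 in that library. Ahnak and Itch were listed at 0 in LNA-NC-cont only, and Ahnak was at 300.4 FPKM in LNA-NC-TGFb. An exact 0 beside such levels can be a failed estimate, so these names carry no statement on direction here.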

How the data were processed

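Total RNA depleted of ribosomal RNA was sequenced from 6 libraries, 1 per condition. The authors deposited 1 table of FPKM values for 29955 gene names; TopHat2 2.0.9, Cufflinks 2.1.1 and the build mm9 come from the submitters' processing notes, and the annotation and counting options are not given in the sources used here. FPKM are not counts, so no count test was run. Start positions in the table count from 0 and are printed from 1.

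Differences were taken between libraries of the same TGF-β state on log2(FPKM + 1). The limma 3.58.1 fit (R 4.3.3) used an additive model of inhibitor and TGF-β over all 6 libraries, with 2 residual degrees of freedom, and Benjamini-Hochberg adjustment over 11816 names with a mean of at least 1 FPKM. It was also run on simulated data with normal noise and equal effects in both TGF-β states, so effects that differ between the states were not covered. The number of libraries limits the precision, and absolute depth is unknown.

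The members and gene lists were chosen with earlier results of these data known. Named genes are the 12 highest and 12 lowest in both states by the smaller difference, the next 6 and 6 with TGF-β, the next 4 and 4 without it, 4 per list by mean difference, and all members of the lists on the study's genes and reported miR-31 targets. Short RNAs, histones, unnamed models and names of several genes were skipped. Genes named beside these were chosen after their values were seen. Alternatives changed the pseudocount, filter, zeros, scaling, comparator, limma options and libraries fitted. Matches to 3′ UTRs and promoters used GENCODE vM21 and RefSeq sequence. Some items are not reported here.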

Additional observations from a re-analysis of the deposited data

Results flagged for a closer look

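For 7 members among the named genes and the gene lists, the miR-31 library lay at least 0.2 above the negative control in 1 TGF-β state and at least 0.2 below it in the other. The difference between the states was not tested. NCX1 differed by 0.46 without TGF-β and by -2.87 with it. Hexdc differed by 2.52 without and by -1.98 with TGF-β. Sgo1 differed by -0.75 without and by 0.36 with TGF-β. These 3 names share their listed place with another name, and the part of that in these values was not tested. Angptl2 differed by 0.28 without and by -0.56 with TGF-β. Hspa1b differed by -0.32 without and by 1.57 with TGF-β, Gadd45g by -0.40 and 0.81, and Cxcl2 by -0.21 and 0.81.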

How the results depend on the processing

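The limma calls depended on the libraries and options. Against 0 higher and 4 lower calls, the trend and robust options gave 6 and 7. Leaving out each library in turn gave 0 to 702 higher and 2 to 435 lower. Without LNA-miR31-cont there were 702 and 435, without LNA-miR31-TGFb 3 and 7, without LNA-NC-TGFb 3 and 10, and without LNA-NC-cont 1 and 2. No filter on low values gave 0 lower calls, and fitting members only gave 1. The 24 members at least 0.5 higher in both states became 45 with a pseudocount of 0.1, and 3 when compared with the mean of the negative-control and miR-27 libraries. The 11 lower became 21 and 3 under these, 7 with a mean of at least 5 FPKM, and 17 with zeros kept. The causes were not tested. The mean differences of the 12 highest and 12 lowest named genes in both states kept their direction over the alternatives, and 0 reversed. These 24 genes were picked for the same sign in both states, which left little room for a reversal. Genes named for 1 state only are not in this tally. With the trend and robust options, 8 of the 24 passed the threshold. Libraries left alone in a group are assumed to vary like the others. No paired analysis was possible because each condition has 1 library, all numbered 1; the TGF-β state is already a term of the fit.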

Other observations

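Gene families chosen after their values were seen also differed as groups in these libraries. Of 16 alpha and beta tubulin genes, the subunits of microtubules, 11 were members, and all 11 were lower with the miR-31 inhibitor in both states, against 30.7% of all members, and 4 by at least 0.5 with TGF-β, against 1.07%. Their medians were -0.28 without and -0.30 with TGF-β, beside -0.26 and -0.16 with the miR-27 inhibitor and the same controls. Tuba1a was at 115.8 FPKM in LNA-NC-cont, 90.8 in LNA-miR31-cont and 80.9 in LNA-miR27-cont, and at 149, 98.5 and 114 with TGF-β. Tubulin genes are similar to each other in sequence, so fragments can be split between them.

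Host genes of small nucleolar RNAs went different ways. Snhg1 was at 254 and 334 FPKM without TGF-β and at 235 and 638.5 with it, in the order negative control, then miR-31 inhibitor. Snhg12 was at 26.8 and 31.4 without and at 22.3 and 61.0 with TGF-β. Over the 8 members of 9 such genes, 5 were higher and 2 lower in both states, against 35% and 30.7% of all members.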
